A study of Mus musculus with 36 samples.

Results

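A set of 10 genes of the chemokine ligand family were followed in cultured mesenchymal stem cells (MSCs) from 4 mouse tissues: the CC ligands Ccl2, Ccl5, Ccl7, Ccl11 and Ccl20, the CXC ligands Cxcl1, Cxcl5, Cxcl10 and Cxcl16, and the CX3C ligand Cx3cl1. They were taken by symbol, 10 of the 24411 genes listed for each RNA-seq library, and all 10 were found. The cells came from femoral bone marrow (fBM-MSCs), vertebral bone marrow (vBM-MSCs), adipose tissue (A-MSCs) and lung (P-MSCs) of 8-week-old C57BL6/J mice, 3 mice in all, with no genetic change and no treatment besides culture. All were plated on collagen I in MesenCult medium with a Rock inhibitor and used within 3 passages, so that each group is a cultured, adherent population and not the cells of the fresh tissue. The RNA-seq data comprised 3 libraries each of fBM-MSCs, A-MSCs and P-MSCs and 2 of vBM-MSCs, made by Smart-seq2, which copies polyadenylated RNA into full-length cDNA. The ATAC-seq data, which mark open chromatin by where the Tn5 transposase inserts adaptors, comprised 1 list of peak summits for each tissue.

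Chemokines are small secreted proteins that direct the migration of leukocytes by binding receptors of the G protein-coupled type. Stromal cells of the marrow and other tissues are known sources of them, and many of their genes are induced by inflammatory cytokines through the transcription factor NF-kB. Ccl2 and Ccl7 attract monocytes through Ccr2, Ccl11 attracts eosinophils through Ccr3, Ccl5 attracts T cells and monocytes, and Ccl20 is the ligand of Ccr6. Cxcl1 and Cxcl5 attract neutrophils through Cxcr2, and Cxcl10 is an interferon-induced ligand of Cxcr3. Cxcl16 and Cx3cl1 differ from the others in that they are made as transmembrane proteins on a mucin-like stalk, which proteases can cut to release the soluble ligand.

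The libraries held 19569650 to 40517739 expected counts, the reads that RSEM assigns to genes, and 3 counts, the most that a gene without counts may stand for, were 0.0740 to 0.153 CPM, counts scaled to the size of the library. No library was a copy of another. Of the MSC surface markers examined, Itgb1 (CD29), Cd44, Ly6a (Sca-1) and Vcam1 (CD106) were at 29.3 TPM or more in every library (TPM, transcript level scaled for length and library total), whereas Pdgfra had a mean below 1 TPM in fBM-MSCs and Nt5e in A-MSCs and P-MSCs. Replicate 3 of the fBM-MSCs stood apart from the other 2 fBM-MSC libraries in Ccl2, Thy1 and Cxcl10, and the results of Ccl2 are given with and without it.

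Levels of the 10 ligands spanned over 4 orders of size. Averaged over the 11 libraries, Ccl2 reached 465 ± 342 TPM (SD, n = 11) and ranked 373rd of 24411 genes, and Ccl7 reached 240.0 ± 153 TPM (SD, n = 11) and ranked 683rd. Cx3cl1 followed with 27.6 TPM and Cxcl16 with 13.4 TPM. Cxcl1, Ccl5 and Cxcl10 averaged 3.55, 2.29 and 1.76 TPM. Ccl20, Ccl11 and Cxcl5 averaged below 1 TPM, with 49, 27 and 6 counts in all libraries together. A gene was tested where it had at least 1 CPM in at least 2 libraries. Ccl2, Ccl7, Cxcl1, Cxcl10, Cxcl16 and Cx3cl1 passed, 6 of the 10, and Ccl5, Ccl11, Ccl20 and Cxcl5 did not.

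**Figure D1:**
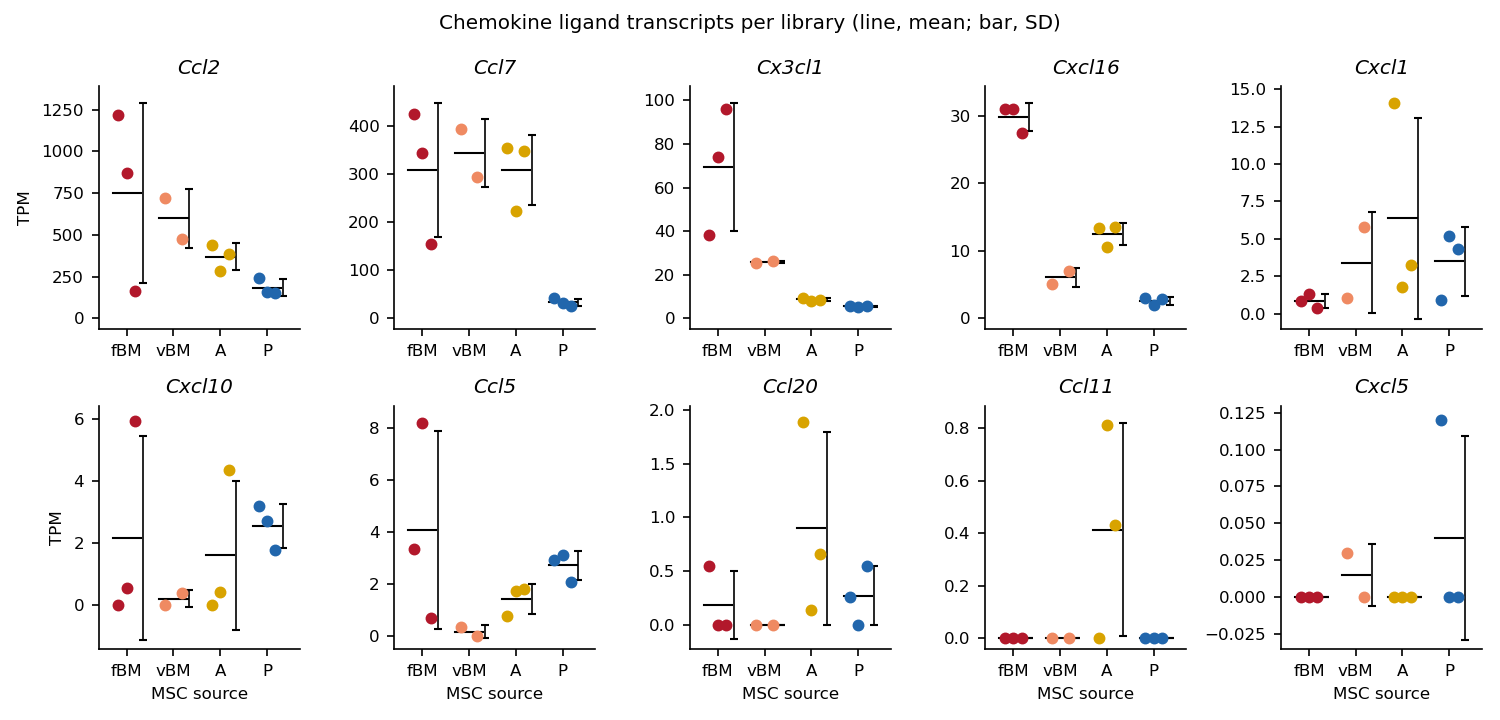
TPM (vertical axis, linear, a separate scale for each gene) of the 10 chemokine ligands in each library of the 4 MSC sources (horizontal axis; points, libraries; line, mean; bar, SD, drawn below 0 where the SD exceeds the mean). Ccl7 and Cxcl16 were lowest in the 3 P-MSC libraries, Cx3cl1 was highest in the 3 fBM-MSC libraries, and Ccl5, Ccl20, Ccl11 and Cxcl5 did not exceed 8.20 TPM.

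The monocyte attractants Ccl2 and Ccl7 were by far the most abundant of the 10 ligands. They lie next to each other on chromosome 11 in the reference genome (GRCm38, the assembly of mm10), Ccl2 at chr11:82035577-82037452 and Ccl7 at chr11:82045712-82047525, both on the plus strand with 3 exons. Ccl2 measured 1219, 871 and 163 TPM in the fBM-MSCs, replicates 1 to 3, and 723 and 475 TPM in the vBM-MSCs. It measured 439.7, 284 and 387 TPM in the A-MSCs and 244, 159.6 and 151 TPM in the P-MSCs. The order of the means was fBM-MSCs, vBM-MSCs, A-MSCs and P-MSCs, and the fBM-MSC replicates covered nearly the whole range of the other tissues, since replicate 3 lay with the P-MSCs. In bone marrow against non-bone marrow MSCs, the contrast of both marrow groups with A-MSCs and P-MSCs, Ccl2 was 2.58-fold higher (log2 fold change 1.37, SE 0.40, adjusted p = 0.0149). No pair of neighbours in that order passed the test, with adjusted p of 0.757, 0.508 and 0.112. The A-MSC and P-MSC libraries did not overlap, however, and a model of those 2 tissues called the difference (adjusted p = 0.000522). Against P-MSCs, Ccl2 was higher in fBM-MSCs by 2.15 (SE 0.56, adjusted p = 0.00789) and in vBM-MSCs by 1.80 (SE 0.59, adjusted p = 0.0317) on the log2 scale.

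The Ccl2 calls depended on single libraries, except that of fBM-MSCs against P-MSCs, which was made in all 18 alternatives. Without replicate 3 of the fBM-MSCs, the marrow contrast of Ccl2 was 1.61 (adjusted p = 0.000115), fBM-MSCs against P-MSCs 2.63 (adjusted p = 5.66e-05) and vBM-MSCs against P-MSCs 1.80 (adjusted p = 0.000796). Without it the difference of fBM-MSCs from A-MSCs went from 0.93 (adjusted p = 0.188) to 1.41 on the log2 scale (adjusted p = 0.00427), and A-MSCs against P-MSCs, at 1.22 in both fits, went from an adjusted p of 0.112 to 0.0071. The marrow contrast of Ccl2 lost its call without replicate 1 of the vBM-MSCs (1.12, adjusted p = 0.0638). So did vBM-MSCs against P-MSCs without that library (1.31, adjusted p = 0.197), without P-MSC replicate 2 (adjusted p = 0.0927) and without P-MSC replicate 3 (adjusted p = 0.0972). The difference of Ccl2 among the 4 tissues, with an adjusted p of 0.0295 and of 0.000219 without fBM-MSC replicate 3, was lost without fBM-MSC replicate 1 or 2 (0.0509 and 0.0608) and without P-MSC replicate 2 or 3 (0.0977 and 0.101).

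Ccl7 was even across 3 of the tissues and low in the fourth. It measured 426, 344 and 154 TPM in the fBM-MSCs, 394.5 and 294 TPM in the vBM-MSCs and 354, 224 and 348 TPM in the A-MSCs. In the P-MSCs it measured 42.0, 32.2 and 26.2 TPM, below every other library. Ccl7 was 10.04-fold higher in fBM-MSCs (log2 3.33, SE 0.38), 11.003-fold higher in vBM-MSCs (log2 3.46, SE 0.40) and 10.7-fold higher in A-MSCs (log2 3.42, SE 0.38) than in P-MSCs, with adjusted p of 3.46e-05, 6.19e-05 and 0.000112. The other 3 pairs of tissues lay within 0.13 on the log2 scale of each other with SE of 0.35 to 0.39, and none passed the test. The value of Ccl7 in the marrow contrast, 1.68 (SE 0.26, adjusted p = 0.000293), thus averaged a difference from P-MSCs and none that was detectable from A-MSCs.

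The ratio of Ccl2 to Ccl7 set the P-MSCs apart. Per length, Ccl2 exceeded Ccl7 by 4.96 to 5.81 times in the 3 P-MSC libraries and by 1.06 to 2.86 times in the 8 others, with no overlap. This is a description, as the ratio was chosen after its values were seen. The expected counts of both genes were whole numbers in every library.

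**Figure D2:**
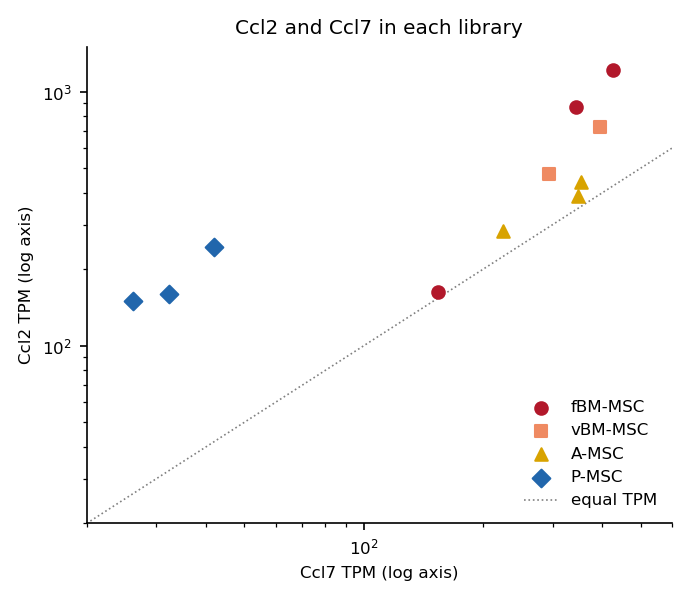
Ccl2 TPM (vertical, log axis) against Ccl7 TPM (horizontal, log axis) in each of the 11 libraries, by tissue; the dotted line marks equal TPM. The 3 P-MSC libraries lie apart at Ccl7 values of 26.2 to 42.0 TPM, and fBM-MSC replicate 3 lies on the line with 163 TPM of Ccl2 and 154 TPM of Ccl7.

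Among 40 chemokine ligands, the 10 and 30 others, Ccl2 and Ccl7 together made up 26.5 to 36.9% of the summed TPM in P-MSCs and 35.1 to 80.6% elsewhere. The low end of the second range was fBM-MSC replicate 3, and the other 7 libraries outside the lung held at least 59.1%. Cxcl12, the CXCR4 ligand that retains haematopoietic stem cells in the marrow, made up 58.3 to 68.0% in P-MSCs and 8.73 to 37.2% elsewhere. The summed ligand TPM was 1526 ± 575 in fBM-MSCs (SD, n = 3), 1414 ± 239.8 in vBM-MSCs (SD, n = 2), 1006 ± 144 in A-MSCs (SD, n = 3) and 685 ± 83.4 in P-MSCs (SD, n = 3). Shares of a sum move together, so a low share of one ligand raises the others.

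**Figure D3:**
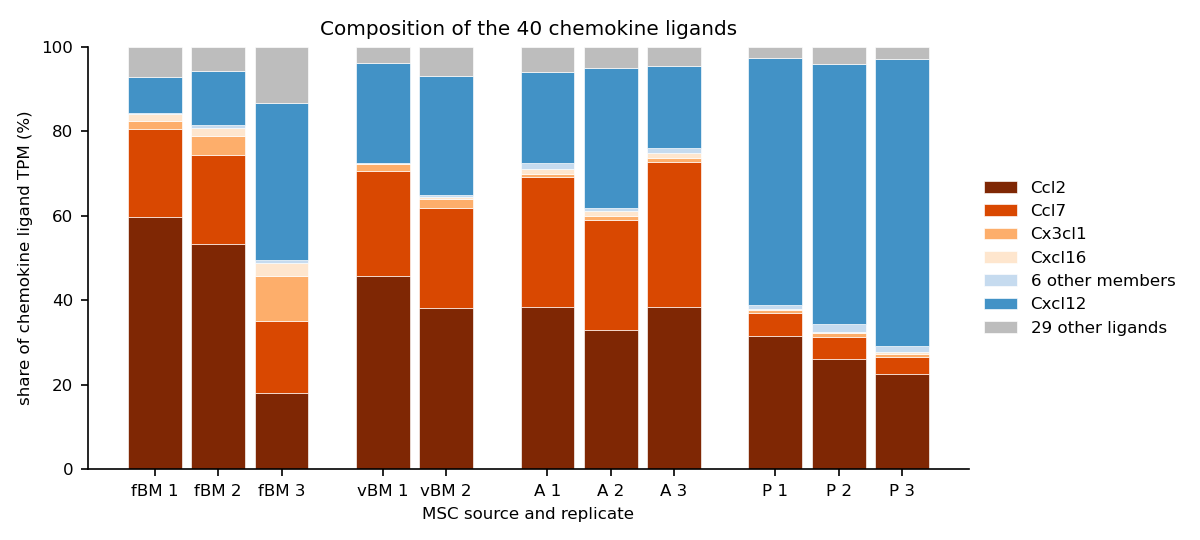
Share of the summed TPM of 40 chemokine ligands (vertical axis, %) in each library (horizontal axis, MSC source and replicate); colours stand for single ligands and for the remaining ones together. Cxcl12 takes 58.3 to 68.0% in P-MSCs, and Ccl2 with Ccl7 take 59.1 to 80.6% in the other libraries except fBM-MSC replicate 3.

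Cx3cl1 and Cxcl16, the membrane-bound ligands, each separated the 4 tissues without overlap. Cx3cl1 (fractalkine, chr8:94772180-94782427, plus strand, 3 exons) is cleaved from the membrane to give the soluble ligand of Cx3cr1. It measured 38.0, 74.0 and 96.0 TPM in the fBM-MSCs and 25.6 and 26.2 TPM in the vBM-MSCs. In the A-MSCs it measured 9.50, 7.99 and 8.64 TPM, and in the P-MSCs 5.84, 5.41 and 5.74 TPM. The order was fBM-MSCs, vBM-MSCs, A-MSCs and P-MSCs. Cx3cl1 was 6.05-fold higher in bone marrow than in non-bone marrow MSCs (log2 2.60, SE 0.19, adjusted p = 1.1e-06), the largest fold of the 4 ligands called in that contrast. It was higher in fBM-MSCs than in vBM-MSCs (log2 1.45, SE 0.28, adjusted p = 0.00758), in vBM-MSCs than in A-MSCs (1.46, SE 0.27, adjusted p = 0.00255) and in A-MSCs than in P-MSCs (0.81, SE 0.25, adjusted p = 0.028). The first of these steps was not called when only the 2 tissues were modelled (adjusted p = 0.0946) or without vBM-MSC replicate 1 (0.0503). The last was not called without A-MSC replicate 1 (0.0784) or 3 (0.0669), nor without P-MSC replicate 1 (0.0676), 2 (0.0846) or 3 (0.0760). The last exon of Cx3cl1 shares bases with the antisense RNA gene Gm51543, which the files do not list, and the libraries carry no strand.

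Cxcl16 (chr11:70454389-70459984, minus strand, 5 exons) is the membrane-bound ligand of Cxcr6 and also a scavenger receptor for oxidised lipoprotein. It measured 31.0, 31.0 and 27.4 TPM in the fBM-MSCs and only 5.09 and 7.08 TPM in the vBM-MSCs. The A-MSCs held 13.5, 10.6 and 13.5 TPM and the P-MSCs 2.97, 1.94 and 2.95 TPM, so that the order was fBM-MSCs, A-MSCs, vBM-MSCs and P-MSCs with no overlap. Each step in that order passed the test: fBM-MSCs over A-MSCs by 1.18 (SE 0.18, adjusted p = 0.000434), A-MSCs over vBM-MSCs, where the value of vBM-MSCs against A-MSCs was -1.16 (SE 0.21, adjusted p = 0.00247), and vBM-MSCs over P-MSCs by 1.28 (SE 0.21, adjusted p = 0.00059). Between the marrow sources, Cxcl16 was 5.08-fold higher in fBM-MSCs (log2 2.34, SE 0.22, adjusted p = 0.000131). The marrow contrast of 1.23 (SE 0.14, adjusted p = 2.76e-05) therefore joined a femoral group above A-MSCs with a vertebral group below them. Of the 10 ligands, Cxcl16 alone had expected counts that were not whole, 1520.99 in fBM-MSC replicate 2, 228.74 in vBM-MSC replicate 1 and 647.97 and 770.99 in A-MSC replicates 2 and 3. The gene shares bases with Zmynd15 on the other strand, which did not exceed 0.33 TPM in any library.

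The neutrophil attractants were low. Cxcl1 (chr5:90891245-90893121, plus strand, 4 exons) measured 0.86, 1.33 and 0.39 TPM in the fBM-MSCs and 1.06 and 5.79 TPM in the vBM-MSCs. It measured 14.1, 1.82 and 3.25 TPM in the A-MSCs and 0.91, 5.23 and 4.36 TPM in the P-MSCs. The fBM-MSCs lay below every A-MSC library and overlapped both other groups. Cxcl1 was lower in fBM-MSCs than in A-MSCs (log2 -3.00, SE 0.99, adjusted p = 0.0312), and no other pair was called. The call was lost without A-MSC replicate 1, the highest library (-1.64, adjusted p = 0.198), and without any 1 of the fBM-MSC replicates (adjusted p of 0.0682, 0.0542 and 0.0866). It was also lost with limma on log2(TPM + 1) (0.0562) and with the replicate number as a block in edgeR (-3.14, adjusted p = 0.0507). A-MSC replicate 1 also held 49.5 TPM of Emcn, an endothelial gene that did not exceed 5.51 TPM in the other libraries. Of the other endothelial markers, Pecam1 was also highest there at 3.84 TPM, whereas Cdh5 was at 0.81 TPM there and 1.05 TPM in A-MSC replicate 2, and Kdr at 0.55 TPM there and 2.33 to 2.84 TPM in the P-MSCs. The part of endothelial cells in the Cxcl1 value was not tested. Cxcl5 (chr5:90759298-90761625, plus strand, 4 exons) had 5 counts in P-MSC replicate 1, 1 count in vBM-MSC replicate 1 and none in the other 9 libraries, which allows up to 0.153 CPM in each.

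Cxcl10 (chr5:92346638-92348889, minus strand, 4 exons) varied as much within tissues as between them. It measured 0, 0.54 and 5.96 TPM in the fBM-MSCs, 0 and 0.40 TPM in the vBM-MSCs, 0, 0.43 and 4.37 TPM in the A-MSCs and 3.19, 2.70 and 1.77 TPM in the P-MSCs. The P-MSCs were the only group with counts in every library, and the highest single values were those of fBM-MSC replicate 3 and A-MSC replicate 3. No comparison of Cxcl10 passed the test, and its value in the marrow contrast was -1.61 (SE 1.29, adjusted p = 0.33). Without fBM-MSC replicate 3 that value was -3.07 (adjusted p = 0.0727). Cxcl10 lies within the span of Art3, read from the other strand, which did not exceed 0.55 TPM.

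Ccl5 (chr11:83525778-83530518, minus strand, 3 exons), an attractant of T cells, measured 3.34, 8.20 and 0.72 TPM in the fBM-MSCs and 0.36 and 0 TPM in the vBM-MSCs. It measured 0.78, 1.73 and 1.83 TPM in the A-MSCs and 2.95, 3.14 and 2.11 TPM in the P-MSCs. These values rest on 147 counts in all, and 1 library reached 1 CPM. The eosinophil attractant Ccl11 (chr11:82057832-82062955, plus strand, 3 exons) had counts in 2 libraries, A-MSC replicates 2 and 3, at 0.81 and 0.43 TPM, and none elsewhere. Ccl20 (chr1:83116766-83119167, plus strand, 4 exons) measured 1.89, 0.14 and 0.66 TPM in the A-MSCs, 0.26, 0 and 0.55 TPM in the P-MSCs, 0.55, 0 and 0 TPM in the fBM-MSCs and 0 in both vBM-MSC libraries. None of these genes, nor Cxcl5, was called in any comparison when all genes with a count were tested.

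The calls of the ligands are set beside the share of all genes called, since many genes differed between these tissues, and shares of 6 tested genes are coarse. Among the 4 tissues together, 4 of the 6 were called (Ccl2, Ccl7, Cxcl16 and Cx3cl1), beside 60.6% of the 12509 genes tested. In bone marrow against non-bone marrow MSCs, the same 4 were higher and none was lower, beside 24.8% of all genes higher, 22.4% lower and 47.2% called. For fBM-MSCs against vBM-MSCs, 2 were higher (Cxcl16 and Cx3cl1) beside 12.8% called, 5.24% higher and 7.56% lower. For fBM-MSCs against A-MSCs, 2 were higher (Cxcl16 and Cx3cl1) and 1 was lower (Cxcl1) beside 40.9% called, 20.6% higher and 20.3% lower. For fBM-MSCs against P-MSCs, 4 were higher (Ccl2, Ccl7, Cxcl16 and Cx3cl1) beside 47.7% called, 24.7% higher and 23.0% lower. For vBM-MSCs against A-MSCs, 1 was higher (Cx3cl1) and 1 lower (Cxcl16) beside 25.6% called, 13.2% higher and 12.4% lower. For vBM-MSCs against P-MSCs, the same 4 as in fBM-MSCs against P-MSCs were higher beside 38.7% called, 21.0% higher and 17.7% lower. For A-MSCs against P-MSCs, 3 were higher (Ccl7, Cxcl16 and Cx3cl1) beside 30.9% called, 16.0% higher and 14.9% lower. These comparisons share libraries and are not independent of each other.

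**Figure D4:**
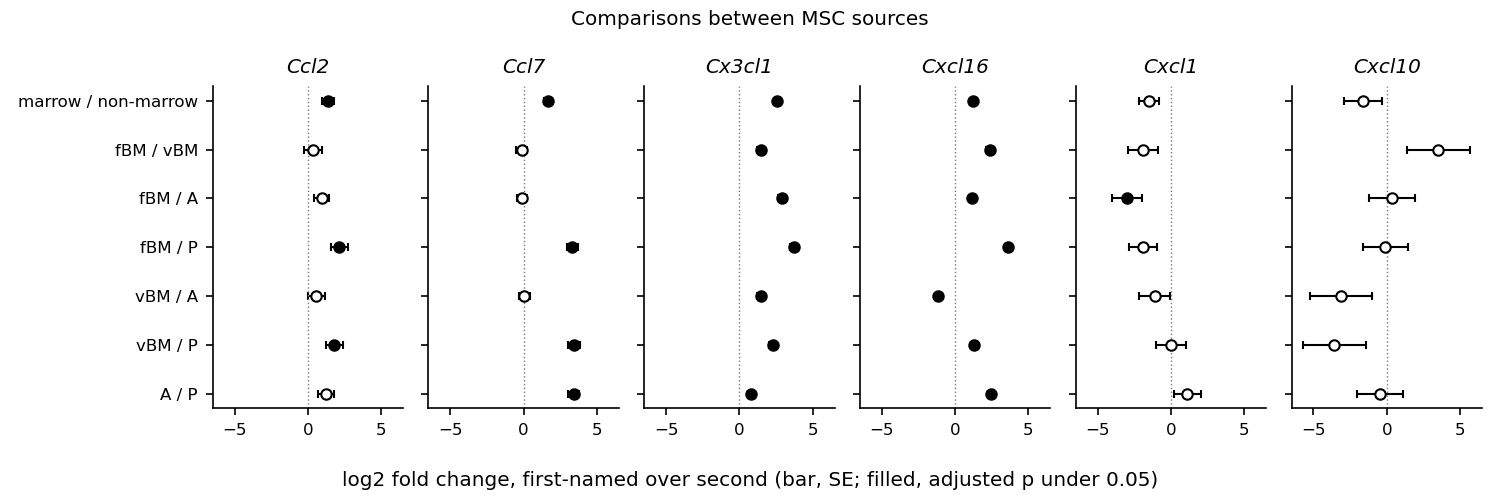
Log2 fold change (horizontal axis; bar, SE) of the 6 tested ligands in the 7 contrasts between MSC sources (vertical axis, first-named over second); filled points passed an adjusted p under 0.05. Cx3cl1 and Cxcl16 are filled in every row, with Cxcl16 at -1.16 for vBM-MSCs against A-MSCs, and Cxcl10 in none.

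The promoter sequences below are shown because chemokine promoters are known for NF-kB sites close to the start of transcription. RefSeq promoters of GRCm38.p6 were at hand for 4 of the 10 genes, the 250 bases before the start of each, and not for Ccl2, Ccl5, Ccl7, Ccl11, Cxcl5 and Cxcl16. They are the interferon-induced Cxcl10 (chr5:92348890-92349139, minus strand), the low neutrophil ligand Cxcl1 (chr5:90890995-90891244, plus strand), Ccl20 (chr1:83116516-83116765, plus strand) and the marrow-high Cx3cl1 (chr8:94771930-94772179, plus strand). Capitals mark matches on either strand to the NF-kB consensus, to the AP-1 sequences TGACTCA and TGAGTCA, to GAAANNGAA, the core of the interferon-stimulated response element, and to TATAAA.
Cxcl10: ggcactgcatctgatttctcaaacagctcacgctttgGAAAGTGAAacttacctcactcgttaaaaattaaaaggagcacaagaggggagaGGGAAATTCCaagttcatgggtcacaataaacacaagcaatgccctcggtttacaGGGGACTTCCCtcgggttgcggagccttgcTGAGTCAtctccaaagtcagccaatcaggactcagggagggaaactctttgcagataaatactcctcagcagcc
Cxcl1: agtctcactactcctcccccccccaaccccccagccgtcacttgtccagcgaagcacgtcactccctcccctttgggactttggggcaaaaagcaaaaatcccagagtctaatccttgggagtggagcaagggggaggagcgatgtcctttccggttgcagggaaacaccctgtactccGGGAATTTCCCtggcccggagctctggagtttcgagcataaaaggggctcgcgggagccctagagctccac
Ccl20: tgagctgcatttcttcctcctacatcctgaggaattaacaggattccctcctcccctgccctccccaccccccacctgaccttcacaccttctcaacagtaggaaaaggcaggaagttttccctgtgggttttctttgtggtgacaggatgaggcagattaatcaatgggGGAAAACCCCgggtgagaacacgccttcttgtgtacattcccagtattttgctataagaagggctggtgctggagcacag
Cx3cl1: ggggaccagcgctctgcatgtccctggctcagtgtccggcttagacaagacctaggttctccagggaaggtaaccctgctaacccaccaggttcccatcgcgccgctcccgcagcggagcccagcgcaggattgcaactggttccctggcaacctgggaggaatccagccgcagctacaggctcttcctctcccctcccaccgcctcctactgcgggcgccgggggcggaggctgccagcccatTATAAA

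Matches to the NF-kB consensus stood in 3 of these 4 promoters, and positions are counted back from -1, the base before the start. Cxcl10 held GGGAAATTCC at -159 to -150 and the overlapping GGGGACTTCC and GGGACTTCCC between -104 and -94, with the AP-1 match TGAGTCA at -74 to -68 and GAAAGTGAA at -213 to -205. Cxcl1 held GGGAATTTCC at -71 to -62, and an overlapping match, GGGAAATTCC, on the minus strand at -70 to -61. The promoter summits of Cxcl1 lay at -60 (A-MSCs), -69 (fBM-MSCs), -112 (vBM-MSCs) and -138 (P-MSCs). Ccl20 held GGGGTTTTCC on the minus strand at -80 to -71. Cx3cl1 held no NF-kB match in these letters but TATAAA at -6 to -1 and GGGCGG, the GC box, at -27 to -22, and it had the highest GC content (64.8%, against 48.0 to 59.2%) and 14 CpG pairs, against 2 to 10. Of 32851 promoters of the same length, 7.25% held an NF-kB match, 4.46% an AP-1 match, 7.13% GAAANNGAA, 12.4% TATAAA and 32.7% GGGCGG on either strand.

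ATAC-seq summits stood at the start of 6 of the 10 genes in at least 1 tissue. A promoter summit is one within 1 kb of an annotated start with a -log10 q of at least 7, the threshold of the study. The value given is its fold enrichment over the genome-wide background, for which all replicates of a tissue were pooled, so no spread is known. Such a summit was present at 56.7%, 57.7%, 57.7% and 58.7% of 20021 genes with a curated transcript (fBM-MSCs, vBM-MSCs, P-MSCs and A-MSCs), and, of the 11214 among them that were tested in RNA-seq, at 87.5%, 89.4%, 89.2% and 90.0%. Ccl2, Ccl7, Cxcl1 and Cx3cl1 had one in all 4 tissues. Cxcl10 had one in fBM-MSCs, A-MSCs and P-MSCs and Cxcl16 in A-MSCs and P-MSCs, while Ccl5, Ccl11, Ccl20 and Cxcl5 had none. These 4 were also the genes too low for the RNA-seq test.

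The order of the enrichments followed that of the RNA levels at some genes and not at others. At Ccl7, the promoter summit reached 13.6, 15.1 and 12.9 in fBM-MSCs, vBM-MSCs and A-MSCs and 6.25 in P-MSCs, the tissue with the least Ccl7 RNA. At Ccl2, the strongest promoter summit rose from 12.1 in fBM-MSCs through 16.9 in vBM-MSCs and 18.8 in A-MSCs to 21.7 in P-MSCs, the reverse of the order of the RNA means. The P-MSCs had a second promoter summit of Ccl2 at -919, with an enrichment of 11.8. At Cxcl10, the promoter summit reached 16.9 in P-MSCs, 8.83 in fBM-MSCs and 5.52 in A-MSCs, and in vBM-MSCs a summit of 4.78 stayed below the threshold. At Cx3cl1, it lay between 10.7 and 14.0 in all 4 tissues, whose RNA means ran from 5.66 to 69.4 TPM. At Cxcl1, it was 7.73, 8.09, 11.04 and 6.25 in fBM-MSCs, vBM-MSCs, A-MSCs and P-MSCs. At Cxcl16, the summits of 6.99 in A-MSCs and 5.52 in P-MSCs lay 187 to 199 bases inside the gene, where it shares bases with Zmynd15, and fBM-MSCs, with the most Cxcl16 RNA, had none.

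**Figure D5:**
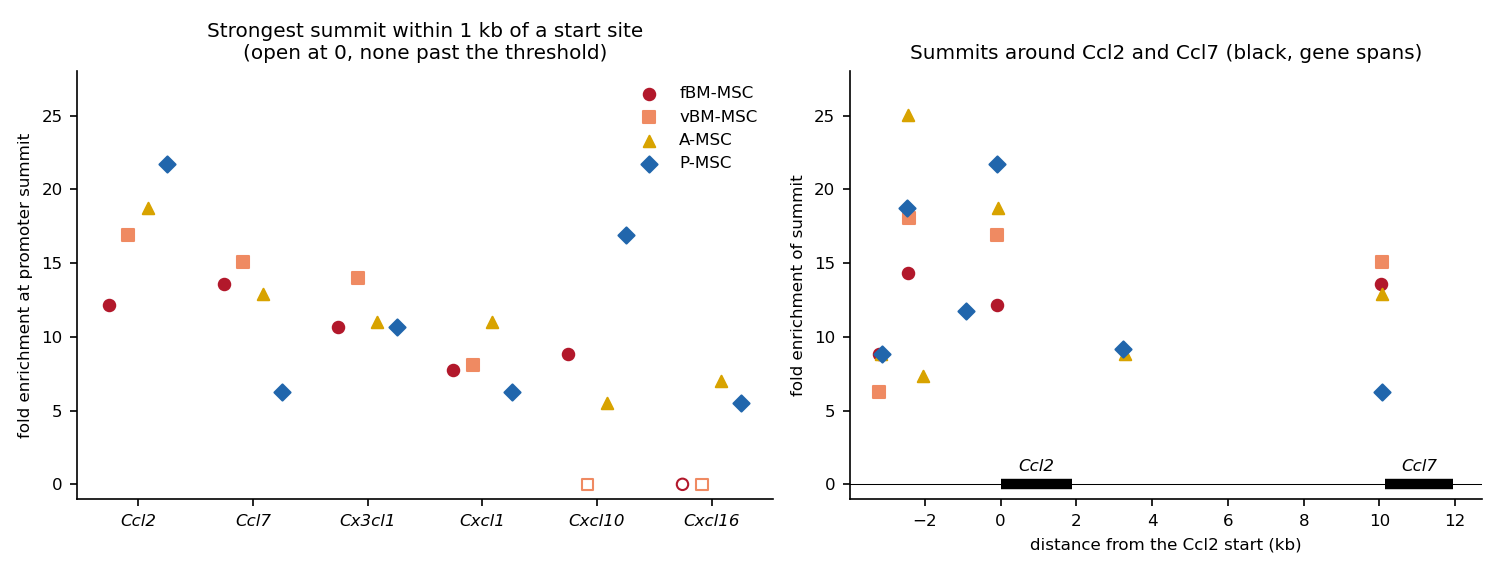
Left, fold enrichment (vertical axis) of the strongest promoter summit of 6 ligands in each tissue, with open symbols at 0 where no summit passed; right, fold enrichment of all summits past the threshold around Ccl2 and Ccl7 by distance from the Ccl2 start (horizontal axis, kb), with gene spans in black. Ccl7 is lowest in P-MSCs at 6.25 and Ccl2 highest in P-MSCs at 21.7.

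Outside the promoters, all 4 tissues shared a summit at -2435 from the start of Ccl2, in no gene, where the position of a shared site is the median over the tissues. Its enrichment was highest in A-MSCs (25.02), similar in P-MSCs (18.8) and vBM-MSCs (18.03), and lowest in fBM-MSCs (14.3). In fBM-MSCs, vBM-MSCs and A-MSCs this summit was stronger than the promoter summit of Ccl2. Its sequence is shown because a distal enhancer with NF-kB sites is known upstream of Ccl2. These are 250 bases around the summits (chr11:82033002-82033251, GRCm38.p6, plus strand), with capitals as above.
Ccl2 upstream site: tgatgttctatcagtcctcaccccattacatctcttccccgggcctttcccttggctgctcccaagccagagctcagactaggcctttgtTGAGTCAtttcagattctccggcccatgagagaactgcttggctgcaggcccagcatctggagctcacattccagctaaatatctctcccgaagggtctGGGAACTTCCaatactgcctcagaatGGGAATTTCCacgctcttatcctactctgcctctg

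The site held the NF-kB matches GGGAACTTCC at -2386 to -2377 and GGGAATTTCC at -2360 to -2351 and the AP-1 match TGAGTCA at -2485 to -2479, counted from the Ccl2 start. Of 71345 windows of the same length around the A-MSC summits past the threshold, 6.57% held an NF-kB match and 26.7% an AP-1 match. The second NF-kB match has the same letters as the one in the Cxcl1 promoter. A further site lay at -3185 from the Ccl2 start in all 4 tissues (6.25 to 8.83), and one 3262 bases after the start, between Ccl2 and Ccl7, passed in A-MSCs (8.83) and P-MSCs (9.20) and stayed below the threshold in vBM-MSCs (5.15) and fBM-MSCs (2.94). Of the genes without a promoter summit, some had open sites at a distance. Ccl5 had one at -4293 from its start in all 4 tissues (16.9 to 18.4), within the non-coding gene Gm32650, and Ccl20 had one 3394 bases after its start, beyond its last exon, strongest in P-MSCs (25.7) and A-MSCs (17.7) and weaker in fBM-MSCs (13.2) and vBM-MSCs (8.09). The strong summit 7742 bases after the start of Cxcl16 (19.9 to 26.9) lay in Med11, 333 bases from the start of that gene.

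Of the 30 other chemokine ligands, 8 passed the filter, and in the marrow contrast 4 were higher, none was lower and 4 were not called, with a median log2 fold change of 1.54. Among those higher, Ccl6 and Cxcl9 reached 1 CPM only in marrow libraries, so the filter left them little room to be lower there. Both enter the count and the median. Over all genes tested, 24.8% were higher, 22.4% lower and 47.2% called, with a median of 0.03. The most abundant were Cxcl12, Cxcl14, Ccl9, Ccl17 and Ccl27a. Cxcl12 measured 451.9, 376 and 454 TPM in the P-MSCs and 178 to 373 TPM in the other libraries, and it was lower in A-MSCs than in P-MSCs (log2 -0.76, SE 0.22, adjusted p = 0.0198). In the marrow contrast it was not called (-0.21, adjusted p = 0.312), but was without fBM-MSC replicate 3 (-0.37, adjusted p = 0.0157). The call against P-MSCs was lost without A-MSC replicate 1 or 3 or P-MSC replicate 1 or 3 (adjusted p of 0.0591 to 0.0807). Cxcl14, an epithelial and stromal ligand, measured 57.6, 44.4 and 69.5 TPM in the fBM-MSCs and at most 12.1 TPM elsewhere. It was higher in the marrow contrast by 2.60 (SE 0.47, adjusted p = 0.000777), with 0.71 and 9.43 TPM in the vBM-MSCs, and higher in A-MSCs than in P-MSCs by 4.05 (SE 0.69, adjusted p = 0.00144). Ccl9, a myeloid attractant that binds Ccr1, was higher in the marrow contrast by 3.17 (SE 0.41, adjusted p = 8.2e-05), with 13.9 to 43.8 TPM in the marrow libraries and 0.78 to 12.4 TPM in the others. Ccl9 was also higher in A-MSCs than in P-MSCs by 2.26 (SE 0.57, adjusted p = 0.0116), a call lost without A-MSC replicate 1 (adjusted p = 0.0524), as was Ccl17 by 2.27 (SE 0.55, adjusted p = 0.0101). Ccl27a, at 5.36 to 14.0 TPM, was not called in the marrow contrast (adjusted p = 0.277).

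Ccl6 and Cxcl9 had the largest fitted changes of that list in the marrow contrast, on few counts. Ccl6, a myeloid ligand, had 177 counts in the marrow libraries and 18 in the others, none of them in P-MSCs (adjusted p = 0.00402). Cxcl9, which like Cxcl10 is an interferon-induced ligand of Cxcr3, had 120 counts in the marrow libraries and none in A-MSCs or P-MSCs (adjusted p = 0.02). Most of them came from 1 library. Cxcl9 had 28 and 85 counts in fBM-MSC replicates 1 and 2, none in replicate 3, where Cxcl10 was highest, and 2 and 5 counts in the vBM-MSCs. Its call was lost without vBM-MSC replicate 2 (adjusted p = 0.0761) and with limma on either log scale (adjusted p of 0.0611 and 0.0967).

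Receptors for most of the 10 ligands were near 0, and the following were singled out after their values were seen. Ccr2 (a receptor of Ccl2 and Ccl7) and Cxcr3 (that of Cxcl10), and likewise Ccr6 (that of Ccl20), had no counts in any of the 11 libraries. Cx3cr1, the receptor of Cx3cl1, did not exceed 0.17 TPM, and Cxcr2, that of Cxcl1 and Cxcl5, did not exceed 0.15 TPM. Ccr3, the receptor of Ccl11, measured 0.38 to 0.74 TPM in the fBM-MSCs and at most 0.24 TPM elsewhere. Ccr1, given below, had counts in every library. Cxcr6, the receptor of Cxcl16, was far higher, at 0.78 to 31.2 TPM. Of the 24 receptors, 6 passed the filter. In the marrow contrast 3 were higher and none lower, with a median of 1.09 on the log2 scale, beside 24.8% of all genes higher and 22.4% lower. In A-MSCs against P-MSCs 3 were higher and none lower, with a median of 1.38, beside 16.0% of all genes higher and 14.9% lower.

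Cxcr6 measured 22.7, 18.2 and 20.5 TPM in the fBM-MSCs, 31.2 and 18.7 TPM in the vBM-MSCs, 5.67, 6.75 and 2.31 TPM in the A-MSCs and 1.75, 0.78 and 2.27 TPM in the P-MSCs. It was higher in the marrow contrast by 3.03 (SE 0.32, adjusted p = 1.89e-05) and in A-MSCs than in P-MSCs by 1.80 (SE 0.44, adjusted p = 0.00988). Its 2 marrow groups overlapped, whereas those of its ligand Cxcl16 did not. Ackr4, which binds and removes CC ligands such as Ccl19 and Ccl21, was higher in the marrow contrast by 5.55 (SE 0.86, adjusted p = 0.000285), with 2.53 to 26.4 TPM in the marrow libraries and at most 1.75 TPM elsewhere. Xcr1, the receptor of Xcl1, was higher by 1.80 (SE 0.27, adjusted p = 0.000227) at 0.25 to 2.01 TPM. Both were also higher in A-MSCs than in P-MSCs, Ackr4 by 4.40 (SE 1.35, adjusted p = 0.029) and Xcr1 by 1.36 (SE 0.37, adjusted p = 0.0164). Ackr4 lost that call without any 1 of A-MSC replicate 1 or 2 and P-MSC replicate 1 or 3 (adjusted p of 0.0530 to 0.0995), and Xcr1 without A-MSC replicate 2 or P-MSC replicate 3 (0.0620 and 0.0595), and both with limma on log2(TPM + 1) (0.312 and 0.0872). Ackr3, the scavenger of Cxcl12, was the most abundant receptor at 4.43 to 38.9 TPM and was not called in the marrow contrast (adjusted p = 0.27), nor was Ccr1 at 0.23 to 1.80 TPM (adjusted p = 0.791).

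Most genes of NF-kB signalling did not pass the test in the marrow contrast. Of 29 subunits, inhibitors and upstream receptors, all of which passed the filter, 7 were higher, 2 lower and 20 not called in the marrow contrast, with a median of 0.12, beside 24.8% of all genes higher and 22.4% lower. Tlr2, a receptor of bacterial lipoproteins, was higher by 1.38 (SE 0.34, adjusted p = 0.00569), and Nfkbie, an inhibitor of NF-kB, by 1.32 (SE 0.14, adjusted p = 1.8e-05). Il1r1, the interleukin 1 receptor, was lower (-1.21, SE 0.18, adjusted p = 0.00025). Of 18 cytokine and adhesion genes known as NF-kB targets, 12 passed the filter, and 3 were higher and 5 lower, with a median of -0.30. Icam1, an adhesion molecule for leukocytes, was higher by 3.09 (SE 0.26, adjusted p = 2.99e-06). Complement C3 (-3.18, SE 0.83, adjusted p = 0.00799) and Tnfsf9, the ligand of 4-1BB (-1.34, SE 0.21, adjusted p = 0.00034), were lower. C3 reached 1 CPM only in A-MSCs, so the filter left it little room to be higher in the marrow. In A-MSCs against P-MSCs, 12 of the 29 signalling genes were higher and 2 lower (median 0.15), beside 16.0% of all genes higher and 14.9% lower, and 6 of the 12 targets were higher and 2 lower (median 0.93).

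The interferon-induced antiviral genes Ifit3 (2.88, SE 0.38, adjusted p = 8.42e-05), Ifit1 (1.46, SE 0.43, adjusted p = 0.0152) and Isg15 (1.32, SE 0.44, adjusted p = 0.0266) were higher in the marrow contrast. Isg15 lost its call without fBM-MSC replicate 1, vBM-MSC replicate 1, A-MSC replicate 1 or P-MSC replicate 1 or 3 (adjusted p of 0.0539 to 0.109). Cxcl10, also induced by interferon, was not called, as given above. Of 11 genes whose products cut or bind chemokines, all passed the filter, and 3 were higher and none lower in the marrow contrast, with a median of 0.13, beside 24.8% of all genes higher and 22.4% lower. They were Mmp2, a protease that trims Ccl7 and Cxcl12 (2.70, SE 0.24, adjusted p = 4.55e-06), Timp3, an inhibitor of the proteases that shed membrane proteins (1.55, SE 0.15, adjusted p = 7.81e-06), and Sdc1, a heparan sulfate carrier (0.60, SE 0.12, adjusted p = 0.00123). In A-MSCs against P-MSCs, 4 of the chemokine-processing genes were higher and 1 lower (median 1.53), beside 16.0% of all genes higher and 14.9% lower.

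Markers of other cells that make chemokines were checked in all libraries. The 12 macrophage markers summed to 40.7 to 52.4 TPM in fBM-MSCs, 24.7 to 45.4 TPM in vBM-MSCs, 18.5 to 27.4 TPM in A-MSCs and 15.9 to 17.2 TPM in P-MSCs, and 4 passed the filter. Adgre1 (F4/80) had no counts in fBM-MSCs, vBM-MSCs and P-MSCs, and Ptprc, Itgam, C1qa, C1qb and C1qc averaged below 1 TPM in every tissue. Other markers of the list were present. Cd68 was highest in the fBM-MSCs, at 12.3 to 18.5 TPM, and measured 0.87 to 7.38 TPM elsewhere. Cd14 measured 1.2 to 5.6 TPM over all libraries, and its highest mean, 5.09 TPM, was that of the P-MSCs. In the marrow contrast Lyz2 was higher (2.65, SE 0.26, adjusted p = 9.31e-06) and Csf1r lower (-2.24, SE 0.24, adjusted p = 1.75e-05). The 8 listed neutrophil and lymphocyte markers summed to 0.64 to 17.9 TPM, and none passed the filter. The 7 epithelial markers summed to 4.76 to 12.4 TPM in A-MSCs and to at most 0.77 TPM in any library of the other tissues. Krt14 measured 2.96 to 5.40 TPM in A-MSCs and at most 0.32 TPM elsewhere. Of these markers 1 passed the filter and was not called in the marrow contrast.

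Several endothelial and mesothelial markers were higher outside the marrow, the mesothelial ones mainly in A-MSCs, in a contrast where 24.8% of all genes were higher in the marrow and 22.4% lower. The 8 endothelial markers summed to 0.01 to 1.19 TPM in the marrow libraries, 3.53 to 55.5 TPM in A-MSCs and 2.55 to 8.29 TPM in P-MSCs. In the marrow contrast, 3 of the 4 that passed were lower: Emcn, with 6 counts in the marrow libraries and 1870 in the others, Cdh5, with 1 and 208, and Kdr (-3.45, SE 0.78, adjusted p = 0.00366). The 7 mesothelial markers summed to 116 to 165 TPM in A-MSCs, 76.2 to 99.1 TPM in P-MSCs and 2.32 to 23.9 TPM in the marrow groups. Of them 5 were lower and none higher in that contrast, among them Krt8, with no counts in the marrow and 1739 outside it, Upk3b, with 8 and 1515, and Msln (-6.38, SE 0.81, adjusted p = 6.9e-05). The A-MSCs held nearly all counts of Krt8 and Upk3b, with 8 and 6 in the P-MSCs. They also held all 2710 counts of Wt1 and all 496 of Lrrn4. In the P-MSCs, most of the mesothelial sum was Krt19 (mean 54.9 TPM) and Upk1b (29.8 TPM). The calls of Krt8 and Upk3b in that contrast were lost without P-MSC replicate 2. Emcn, Cdh5, Kdr, Krt8, Upk3b and Msln reached 1 CPM only outside the marrow, so the filter left them little room to be higher in it. The counts of lower markers are therefore a description. Of the 8 MSC surface markers, 4 were higher and 2 lower, with Nt5e (4.97, SE 0.83, adjusted p = 0.000479) and Ly6a (2.72, SE 0.18, adjusted p = 5.74e-07) higher and Pdgfra lower (-2.33, SE 0.26, adjusted p = 2.94e-05). The part of any of these cell types in the levels of the ligands was not tested. In bulk RNA, fewer cells that express a gene and less RNA per cell cannot be told apart.

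Genes with the pattern most like each tested ligand were taken by Pearson's r of log2(TPM + 1) over the 11 libraries, which fall into 4 tissues. Cx3cl1 was most like Map1lc3b (0.993), Ypel3 (0.987) and Fbxo32 (0.986), and Cxcl16 most like Hoxc13 (0.985), Cmtm4 (0.985) and Fam78b (0.975). Ccl7 was most like Gng10 (0.968), Rnf181 (0.964) and Mien1 (0.961), and Ccl2 most like Clic4 (0.954), Ttc9 (0.939) and Abca1 (0.934). The nearest genes to the scattered ligands were less close, Apold1 (0.897), Rmdn2 (0.880) and 2610002M06Rik (0.859) for Cxcl1 and Rad52 (0.898), Tmem180 (0.880) and Kirrel (0.873) for Cxcl10. These are the highest of 12509 values each and carry no p.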

How the data were processed

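The 10 ligands, the gene lists and the tests were chosen with earlier results of these data known. The 4 tissues came from the same 3 mice. The sources used here do not tie a library to a mouse, and p-values measure the spread between libraries as if these were independent. The third vBM-MSC library was not analysed here.

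Paired reads were aligned to mm10 (iGenomes) with STAR and quantified with RSEM by the authors, whose expected counts, as deposited, are estimates on the raw scale. The deposited TPM is scaled by RSEM for effective length and to a fixed sum, and the deposited FPKM, for length and library size, was not used in a result. Smart-seq2 keeps no strand and no molecular identifiers, so counting limits cover counting error only. ATAC-seq reads were trimmed (TrimGalore), aligned uniquely (Bowtie), freed of duplicates (Picard), moved by 4 or -5 bases to the Tn5 cut and freed of blacklisted regions by the authors, who then called summits with MACS2 on pooled samples, 6 for each tissue from 3 replicates. The deposited lists give each summit's fold enrichment as a ratio, its -log10 q and a display score. Versions are not given in the sources used here.

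After rounding, the expected counts of all genes went into 1 edgeR model of the 4 tissues (edgeR 4.0.16, R 4.3.3, quasi-likelihood test, TMM factors of 0.913 to 1.11, at least 1 CPM in at least 2 libraries, Benjamini-Hochberg adjusted p under 0.05 over 12509 genes). The contrast of marrow with non-marrow MSCs sets the mean of fBM-MSCs and vBM-MSCs against that of A-MSCs and P-MSCs. Alternatives were DESeq2 1.42.0, RLE factors, no filter, limma 3.58.1 on log2(TPM + 1) and log2(TPM + 0.1), a replicate block, models of 2 tissues and leaving out each library. The NF-kB consensus was searched with GGG, a purine, any 2 bases, 2 pyrimidines and CC. Scripts were tested on simulated data. All 10 ligands were named; of the other ligands and receptors, the 5 with the highest mean TPM and the 3 largest called changes in the marrow contrast and in A-MSCs against P-MSCs; of each other list, the 3 largest called changes in the marrow contrast; and for each tested ligand the 3 genes of highest r. Tables were made with pandas 2.3.3 in Python 3.11.15 and plots with matplotlib 3.10.9.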

Additional observations from a re-analysis of the deposited data

How the results depend on the processing

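The call of Ccl7, Cxcl16 and Cx3cl1 in the marrow contrast and among the 4 tissues held in all 17 alternatives of each, and so did each pairwise call of Ccl7 and Cxcl16 in all 18. Calls of Ccl2, and those of Cx3cl1 and Cxcl1 named in the report, were lost in some. Beyond the libraries named there, Ccl2 among the 4 tissues was lost with limma (adjusted p of 0.0692 and 0.0721), Ccl2 in vBM-MSCs against P-MSCs with limma on log2(TPM + 0.1) (0.0519), Cx3cl1 in A-MSCs against P-MSCs with limma (0.12 and 0.0905) and Cxcl1 in fBM-MSCs against A-MSCs with limma on log2(TPM + 1) (0.0562). DESeq2 called Cxcl1 among the 4 tissues (0.0367), and a model of 2 tissues called Cxcl10 in vBM-MSCs against P-MSCs (0.0273) and Ccl2 in A-MSCs against P-MSCs (0.000522). For fBM-MSCs against vBM-MSCs, a model of the 2 tissues called 305 genes and 1 ligand (Cxcl16) in place of 1601 and 2, with fewer samples in the fit, and leaving out a library gave 610 to 1961 genes and 1 to 2 ligands, the lowest without vBM-MSC replicate 1.

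Same-numbered libraries deviated together with r of -0.037 to 0.175 over 15 pairs (mean 0.032), with 1 over 0.1. Over 30 pairs of different number, r was -0.175 to 0.175 (mean -0.016), also with 1 over 0.1. Of the libraries, 7 of 11 correlated best with their own number. These values do not settle whether the numbers pair the samples, and the main fit holds no block. With the replicate number as a block, 7332 genes were called among the 4 tissues, 5785 in the marrow contrast, 1326 in fBM-MSCs against vBM-MSCs and 3863 in A-MSCs against P-MSCs, and Cxcl1 in fBM-MSCs against A-MSCs (adjusted p = 0.0507) was the only ligand whose call changed. Of the other genes named, Isg15 lost its call in the marrow contrast (adjusted p = 0.0702).

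Signs turned only where no test was passed in either fit. Ccl2 in fBM-MSCs against vBM-MSCs was -0.0714 and -0.0727 with limma and -0.26 to 0.84 leaving out a library. Ccl7 was -0.49 to 0.24 there, -0.45 to 0.23 in fBM-MSCs against A-MSCs and -0.34 to 0.34 in vBM-MSCs against A-MSCs, where the replicate block gave -0.16. Cxcl1 in vBM-MSCs against P-MSCs was -0.0095 with DESeq2, -0.0038 with RLE factors, -0.0056 without a filter, -0.095 and -0.14 with limma, -0.34 with the replicate block and -1.49 to 0.71 leaving out a library. Leaving out a library also gave Cxcl1 -2.60 to 0.25 in vBM-MSCs against A-MSCs and -0.25 to 1.56 in A-MSCs against P-MSCs, and Cxcl10 -2.55 to 3.20, -3.01 to 0.48 and -3.29 to 0.11 in fBM-MSCs against A-MSCs, fBM-MSCs against P-MSCs and A-MSCs against P-MSCs.

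Promoter summits depended on the threshold. With no q threshold, Ccl2 had 2 in vBM-MSCs and in A-MSCs, and Cxcl5, Cxcl10 and Cxcl16 had 1 each in vBM-MSCs. Within 500 bases, Ccl2 had 1 in P-MSCs in place of 2. At a -log10 q of at least 20, 0 remained for Ccl7 in P-MSCs, Cxcl1 in fBM-MSCs, vBM-MSCs and P-MSCs, Cxcl10 in fBM-MSCs and A-MSCs, and Cxcl16 in A-MSCs and P-MSCs. On log2(CPM + 1), 12 of the 18 genes named as most like a ligand were named again.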
